A study of Mus musculus with 43 samples.

Results

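Cas9-expressing OT-I CD8+ T cells that carried a pooled knockout library were compared between the spleen of anti-PD-1-treated tumour-bearing mice and the same kind of cells on the day of transfer (T0). The comparison used 6 of the 43 samples of the series, namely 3 spleen anti-PD-1 libraries and 3 T0 libraries, which were chosen by their labels alone, and 41 samples of the series carried values. In all groups the cells were CD90.1+ OT-I T cells with a Cas9 knock-in, transduced with a lentiviral library of 10390 sgRNAs against 2078 metabolic genes (5 per gene) and 250 nontargeting sgRNAs. T0 cells were taken in vitro on day 0, after the cells had been activated, transduced, expanded and selected on CD90.1. Changes from T0 therefore do not hold losses that came before transfer. Spleen cells were recovered on day 7 after injection into the tail vein of Rosa26-Cas9 mice that bore an orthotopic KPC_OVA tumour, a mouse pancreatic ductal adenocarcinoma line engineered to express ovalbumin, with anti-PD-1 started on the day of transfer. Spleen cells of mice given control IgG and primary tumour cells of mice given anti-PD-1, with 3 libraries each, served to show where the spleen differed. The sources do not tie single libraries to single mice, so that p-values measure the spread between libraries, which may hold more than 1 animal. The libraries are sgRNA inserts in genomic DNA and hold no expression, hence the labelled cell type could not be checked against marker genes. One further library, whose title names peritoneal metastases but whose tissue label names spleen, was not counted as spleen.

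OT-I T cells recognise an ovalbumin peptide, become activated where the antigen is presented and divide in lymphoid organs before and while they reach the tumour. The spleen is the largest secondary lymphoid organ, where transferred effector cells circulate, expand or are retained. PD-1 is an inhibitory receptor of activated T cells, and an antibody against it relieves that inhibition. In a pooled screen each cell carries a knockout marked by its sgRNA. An sgRNA that becomes rarer than the nontargeting sgRNAs marks a knockout whose cells were lost relative to the others (depleted), whereas one that becomes more frequent marks a knockout whose cells accumulated (enriched). Loss in the spleen can come from less survival, less division, less entry or more exit of the cells, and these cannot be told apart in sgRNA counts.

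For each gene the log2(signal + 1) values of its 5 sgRNAs were averaged and centred on the nontargeting sgRNAs of the same library. A level of 0 is thus the average of the nontargeting sgRNAs, and a change of 1 between groups is a 2-fold change of signal. Of all sgRNAs, at most 0.0188% were undetected in a T0 library, where undetected means a value at the lowest that the sgRNA has in libraries of the same number. In the spleen under anti-PD-1 this share was 4.60% in replicate 1, 24.1% in replicate 2 and 7.40% in replicate 3, against 5.06% to 12.8% in spleen IgG and 2.90% to 4.24% in primary tumour anti-PD-1. Spleen replicate 2 therefore stood apart, with 18.4% of its nontargeting sgRNAs undetected. The change of single nontargeting sgRNAs from T0 spread with an SD of 1.02, 2.75 and 1.67 in the spleen libraries on the log2 scale. Summed signal also differed, with 3576974, 3327763 and 1965083 in spleen anti-PD-1 replicates 1 to 3 and 4228882, 4085227 and 2882462 in T0. The mean log2 signal of nontargeting sgRNAs, on which levels were centred, was 8.23, 8.17 and 7.60 in T0 replicates 1 to 3. T0 replicate 3 stood apart in the depleted genes too. There 275 of the 305 genes depleted in spleen were highest among the T0 libraries, whereas 885 of all 2078 genes were. The median level of the depleted genes was −0.23, 0.02 and 0.52 in T0 replicates 1 to 3. The part of this difference between T0 libraries in the changes below was not tested.

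In the spleen under anti-PD-1, 305 of 2078 genes were depleted (14.7%) and 15 were enriched (0.722%) relative to T0 by limma, at 0.05 after Benjamini-Hochberg adjustment over all genes. The largest decreases included those of *Rpl27*, *Rrm1* and *Rpl36*, and the largest increases were those of *Pik3cd*, *Pik3r1*, *Mgat2*, *Dgkz*, *B3gnt2* and *Slc35a3*, in this order. Of the depleted genes, 299 had at least 4 of 5 sgRNAs lower than in T0 and 257 had all 5 lower. All 15 enriched genes had at least 4 sgRNAs higher and 12 had all 5 higher. Spleen and T0 libraries did not overlap for any of the 320 called genes, while over all genes the spleen libraries lay below all T0 libraries for 26.7% and above them for 7.89%. The median change over all genes was −0.21, with 5% of genes below −4.35 and 5% above 0.77. At the level of single sgRNAs, 499 of 10390 were depleted (4.80%) and 16 were enriched (0.154%), and 235 of the 305 depleted genes had at least 1 depleted sgRNA. None of the 250 nontargeting sgRNAs was called in either direction in the limma fit of all sgRNAs.

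**Figure D1:**
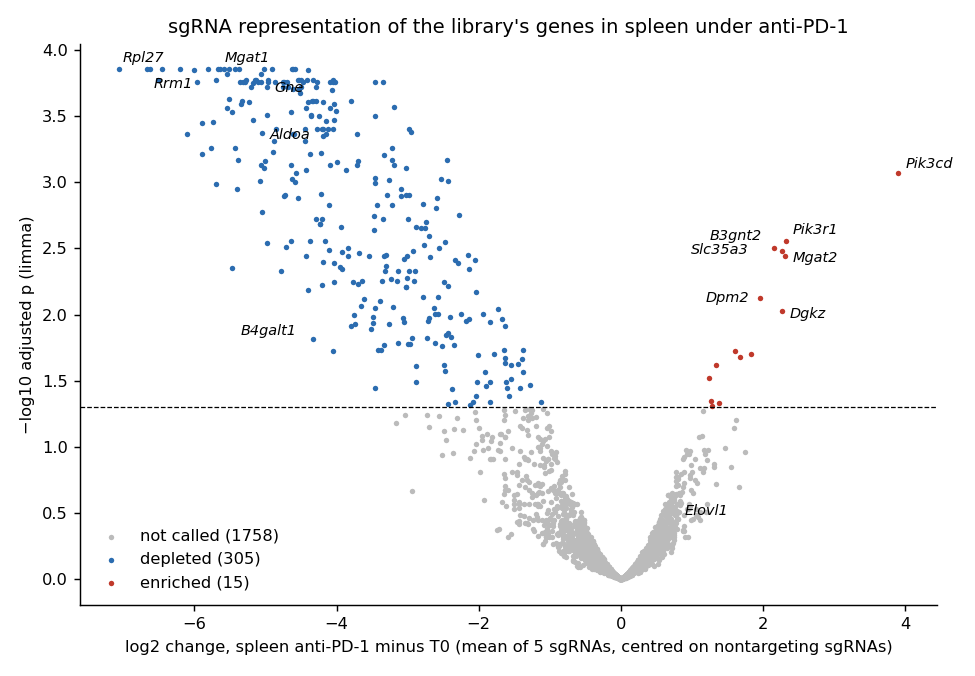
Change of each of 2078 genes between spleen anti-PD-1 and T0 (x axis, log2, mean of 3 libraries each) against −log10 of the limma adjusted p (y axis), with the threshold of 0.05 dashed. The 305 depleted genes reach −7.06 and the 15 enriched genes lie between 1.24 and 3.90, with *Pik3cd* apart from the rest.

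The counts depended on the libraries and on the centring. Without spleen replicate 2 the calls were 37 enriched, which held all 15, and 370 depleted. Without spleen replicate 1 there were 46 enriched genes, whereas leaving out T0 replicate 1, 2 or 3 left 7, 7 and 5 enriched genes. The 5 genes still enriched without T0 replicate 3 were *Pik3cd*, *Pik3r1*, *Mgat2*, *B3gnt2* and *Slc35a3*, and the depleted count was then 237. Another set remained with all libraries of the series in 1 fit, where the 3 enriched genes were *Pik3cd*, *Pik3r1* and *Dgkz*. In that fit *Mgat2*, *Slc35a3* and *B3gnt2* had limma adjusted p of 0.0566, 0.0934 and 0.210. Centring on the median of the nontargeting sgRNAs moved the median change of all genes to −0.67 and gave 9 enriched and 336 depleted genes, while values as deposited had a median change of −1.22 and gave 1 and 569. The statements on direction below are therefore relative to the nontargeting average. The values as deposited shift all genes alike, so that the list medians above 0 given below (PI3K, GPI anchor, elongase and mitochondrial DNA genes) lie below 0 in them, and with the nontargeting median only that of the GPI anchor genes stays above 0.

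*Pik3cd*, which encodes p110δ, the catalytic PI3K subunit that predominates in leukocytes, showed the largest increase. Its level was 0.45, 0.50 and −0.61 in the T0 libraries and 3.11, 4.55 and 4.39 in the spleen anti-PD-1 libraries. The increase was 3.90 ± 0.50 (SE, n = 3 against 3; limma adjusted p = 0.000852), and the lowest spleen library lay well above the highest T0 library. All 5 sgRNAs were higher in their mean and 3 passed the test on their own. The sgRNA s_02630, for example, had a signal of 323, 449 and 134 in T0 and of 2404, 4805 and 3773 in spleen. *Pik3cd* remained enriched under all 17 alternative settings, including the values as deposited.

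*Pik3r1* encodes p85α, the regulatory subunit that stabilises p110 and holds it at the membrane receptor complex. Its level was 0.71, 0.51 and −0.03 in T0 and 2.27, 2.84 and 3.02 in spleen, an increase of 2.32 ± 0.37 (SE, n = 3 against 3; limma adjusted p = 0.00277). It passed the test under 16 of 17 alternatives. No sgRNA passed the test alone, and 4 had centred log2 changes of 2.20 to 3.63, whereas that of s_02631 was 0.34. *Pik3cd* and *Pik3r1* were the only enriched members among the 12 PI3K genes of the library (16.7%, against 0.722% of all genes). The 12 genes had a median change of 0.21 and no depleted member (0%, against 14.7% of all genes). The other class I catalytic genes had values of 0.68 for *Pik3cb*, −0.31 for *Pik3cg* and −0.43 for *Pik3ca*, and none passed the test. The vacuolar PI3K gene *Pik3c3* had a change of −1.11, also without passing it.

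Enzymes that end phosphoinositide and diacylglycerol signals were measured beside the kinases. Among 22 phosphoinositide phosphatases none was enriched and 2 were depleted (9.09%, below the 14.7% of all genes). *Inpp5d*, which encodes SHIP1, a phosphatase of the PI3K product in haematopoietic cells, had levels of 0.07, 0.09 and 0.27 in T0 and of −2.17, −4.64 and −1.45 in spleen, a decrease of −2.89 ± 0.74 (SE, n = 3 against 3; limma adjusted p = 0.0321). *Inpp5k* fell by 4.27. Among 10 diacylglycerol kinases 1 was depleted (10%, below the 14.7% of all genes). The only enriched one was *Dgkz* (10%, against 0.722% of all genes). It encodes the enzyme that removes diacylglycerol, a second messenger of the T cell receptor. *Dgkz* had levels of 0.22, −0.19 and −0.45 in T0 and of 1.86, 3.02 and 1.51 in spleen, an increase of 2.27 ± 0.46 (SE, n = 3 against 3; limma adjusted p = 0.00939). All 5 sgRNAs were higher in their mean, but none passed the test alone, and without T0 replicate 3 the adjusted p was 0.0560. *Dgka*, the other isoform well known from T cells, had a change of 0.11, and *Dgkd* fell by 1.45.

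**Figure D2:**
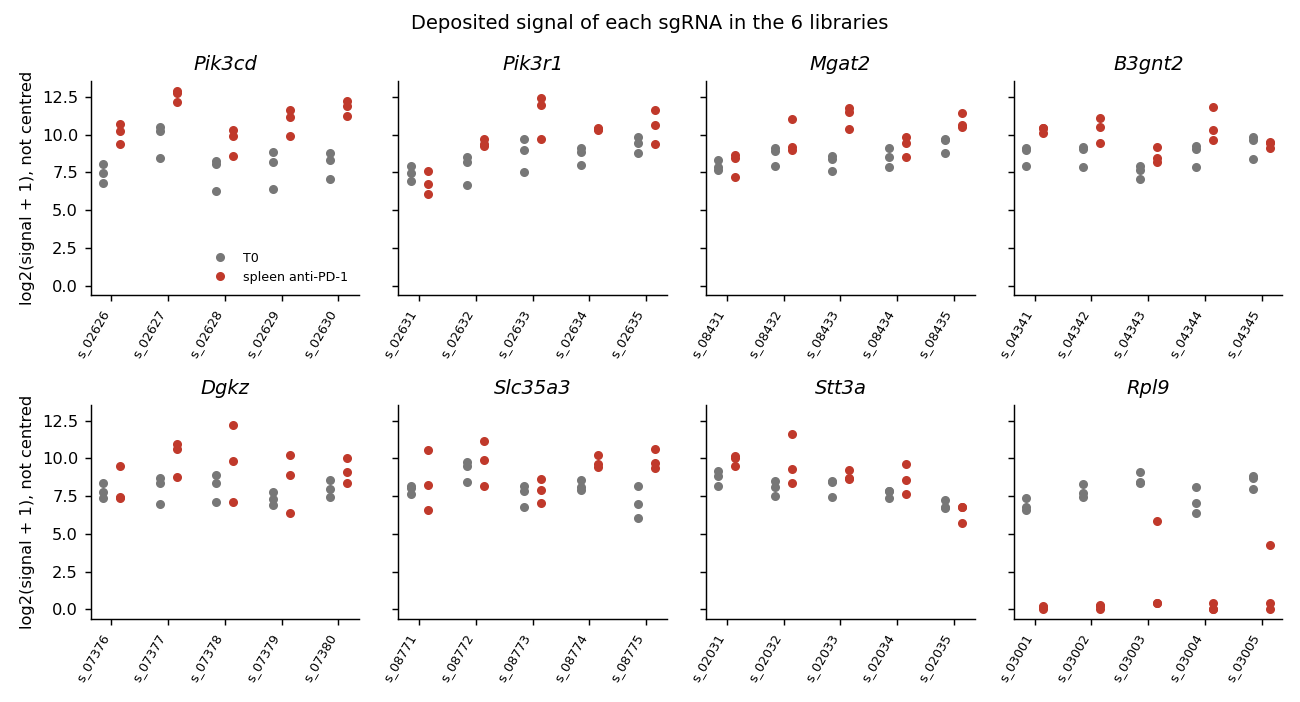
log2(signal + 1) of each of the 5 sgRNAs (x axis) of 8 genes in the 3 T0 and the 3 spleen anti-PD-1 libraries, before centring. All 5 *Pik3cd* sgRNAs lie higher in spleen, whereas most *Rpl9* values in spleen are at or near 0.

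N-glycans are built on dolichol, transferred to proteins by oligosaccharyltransferase, trimmed and then branched in the Golgi, where *Mgat1* adds the first GlcNAc branch and *Mgat2* the second. In 17 genes of trimming and branching, 2 were enriched (11.8%, against 0.722% of all genes) and 2 depleted (11.8%, below the 14.7% of all genes). *Mgat2* had levels of 0.69, 0.51 and 0.40 in T0 and of 2.15, 3.30 and 3.08 in spleen, an increase of 2.31 ± 0.39 (SE, n = 3 against 3; limma adjusted p = 0.00362). *Slc35a3*, which encodes a Golgi transporter for UDP-GlcNAc, the donor of these branches, had levels of 0.14, −0.01 and −0.12 in T0 and of 1.78, 2.66 and 2.01 in spleen. Its increase was 2.15 ± 0.35 (SE, n = 3 against 3; limma adjusted p = 0.00315). *Mgat1*, 1 step before *Mgat2*, went the other way, with levels of −0.60, −0.08 and 0.54 in T0 and of −5.42, −6.26 and −5.48 in spleen (change −5.67 ± 0.42, SE, n = 3 against 3; limma adjusted p = 0.00014). *Mogs*, which encodes the glucosidase that starts trimming, fell by 3.47. *Mgat5* and *Mgat3*, which also encode GlcNAc transferases of N-glycans, had small values of 0.51 and 0.09 that did not pass the test.

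*B3gnt2* encodes the main enzyme that extends branches with poly-N-acetyllactosamine. Its level was 0.77, 0.78 and 0.23 in T0 and 2.32, 3.22 and 3.03 in spleen, an increase of 2.26 ± 0.37 (SE, n = 3 against 3; limma adjusted p = 0.0033), and 2 of its 5 sgRNAs passed on their own. It was the only enriched one of 15 genes of poly-N-acetyllactosamine extension (6.67%, against 0.722% of all genes). The galactosyltransferase genes *B4galt1* (−4.33, SE 0.96) and *B4galt5* (−2.98, SE 0.33) were depleted. The depleted share of this list was 13.3%, near the 14.7% of all genes. *B4galt1* varied between libraries, with −6.02, −4.48 and −1.60 in spleen. Its adjusted p by limma was 0.0153 in all 6 libraries, 0.0585 without spleen replicate 2 and 0.0556 without T0 replicate 3.

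In 28 genes of dolichol-linked oligosaccharide synthesis and oligosaccharyltransferase, 17 were depleted (60.7%, against 14.7% of all genes) and 2 enriched (7.14%, against 0.722%). The depleted ones included *Dpagt1* (−5.70), which starts the oligosaccharide, *Alg2* (−5.54) and the oligosaccharyltransferase subunit *Rpn1* (−4.90). *Stt3a*, a catalytic subunit of the same complex, had levels of −0.10, −0.06 and −0.14 in T0 and of 0.99, 2.51 and 1.66 in spleen, an increase of 1.83 ± 0.43 (SE, n = 3 against 3; limma adjusted p = 0.0197). *Stt3b*, its paralogue, had a change of 0.94 (adjusted p = 0.294 by limma). *Dpm2*, which encodes a regulatory subunit of dolichol-phosphate-mannose synthase, had levels of 0.80, 0.56 and 0.47 in T0 and of 2.16, 3.20 and 2.34 in spleen (increase 1.96 ± 0.38, SE, n = 3 against 3; limma adjusted p = 0.00747). The other subunits had changes of 1.47 for *Dpm3* and 0.71 for *Dpm1*, which did not pass the test. *Stt3a* lost its call without spleen replicate 3 and without any of the T0 libraries, with limma adjusted p of 0.0506 to 0.0930.

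Dolichol-phosphate-mannose is also used for glycosylphosphatidylinositol (GPI) anchors, and CD90.1, the marker on which the cells were selected and sorted, is held in the membrane by such an anchor. Of 23 GPI anchor genes 1 was enriched (4.35%, against 0.722% of all genes) and none was depleted (0%, against 14.7%). The enriched gene was *Pigf* (1.33 ± 0.32, SE, n = 3 against 3; limma adjusted p = 0.0241). *Pigf* was called under 9 of 17 alternatives and lost its call with the nontargeting median (adjusted p = 0.118 by limma) and without T0 replicate 1 (0.165), 2 (0.0997) or 3 (0.147). Their median change was 0.61, against −0.21 over all genes, and the spleen libraries lay above all T0 libraries for 11 of the 23, against 7.89% of all genes. The part of the selection on CD90.1 in this was not tested. *Pigo*, which like *Pigf* acts late in the pathway, had a larger change of 1.55, but its spleen levels of 1.15, 3.09 and 0.76 spread more and the adjusted p by limma was 0.142.

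The enriched genes also held *Cops8*, *Gstm4*, *Cyb5rl*, *Pde4c*, *Agps* and *Tgds*, of which the last 3 were named after their values were seen. *Cops8* encodes a subunit of the COP9 signalosome, which removes NEDD8 from cullin ubiquitin ligases. It had levels of 0.45, 0.24 and 0.21 in T0 and of 1.28, 2.20 and 2.23 in spleen, an increase of 1.60 ± 0.37 (SE, n = 3 against 3; limma adjusted p = 0.0187). Its partner *Cops6* was depleted (−2.99), and *Cops4* (1.01) and *Cops2* (−0.54) did not pass the test. *Gstm4*, a glutathione S-transferase gene, rose by 1.67, *Cyb5rl* by 1.39, the ether lipid gene *Agps* by 1.29, the phosphodiesterase gene *Pde4c* by 1.27 and *Tgds* by 1.24. These were close to the threshold, with limma adjusted p between 0.0210 and 0.0493, and *Cyb5rl* passed under 4 of 17 alternatives. *Cops8* and *Gstm4* lost their calls without any of the T0 libraries, with limma adjusted p of 0.0764 to 0.107 and of 0.0901 to 0.113, and *Dpm2* without T0 replicate 3 (0.0520). *Gstm4* belongs to a family of closely related genes, and an sgRNA may cut more than 1 member.

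*Elovl1* encodes an elongase of saturated very long-chain fatty acids. The study names it for this screen as enriched above all in the liver under anti-PD-1, an organ not compared here. Its levels were −0.08, −0.13 and −0.32 in T0 and 1.08, −0.22 and 0.93 in spleen. The change was 0.77 ± 0.42 (SE, n = 3 against 3; limma adjusted p = 0.326), with 4 of 5 sgRNAs higher. Spleen replicate 2 overlapped with T0, and there 1 sgRNA, s_04391, was undetected, against signals of 228 and 760 in the other spleen libraries. Without this library the change was 1.18 (limma adjusted p = 0.0107). That fit called 37 genes enriched, against 15 with all 6 libraries, and no other alternative called *Elovl1* enriched. Its adjusted p by limma was 0.457 with the replicate block and 0.997 with all libraries of the series in 1 fit. With values as deposited the change was −0.24. None of the 7 elongase genes was called, and their median change was 0.32.

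**Figure D3:**
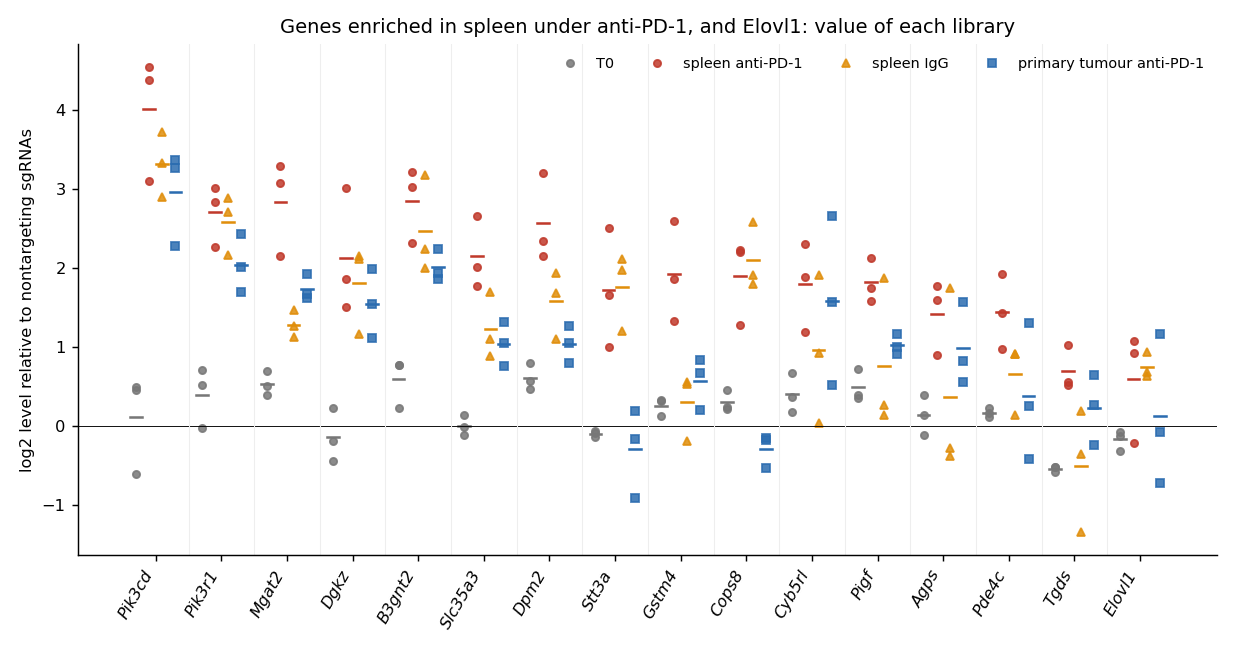
Level of the 15 enriched genes and of *Elovl1* relative to the nontargeting sgRNAs (y axis, log2) in each of 3 libraries of T0, spleen anti-PD-1, spleen IgG and primary tumour anti-PD-1, with bars for group means. For all 15 genes the spleen anti-PD-1 libraries lie above the T0 libraries. For *Elovl1* spleen replicate 2 lies at −0.22, among the T0 values.

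Ribosomal proteins, RNA polymerases and the proteasome are needed by every dividing cell. Of 20 ribosomal protein genes 19 were depleted, with a median change of −5.45. *Rpl27*, a protein of the large ribosomal subunit, had levels of −0.37, 0.04 and 1.12 in T0 and of −7.46, −6.39 and −6.53 in spleen, and all 15 spleen values of its 5 sgRNAs were undetected. Its decrease of −7.06 ± 0.49 (SE, n = 3 against 3; limma adjusted p = 0.00014) was the largest of all genes. With all sgRNAs undetected the level can go no lower, so that decreases of this size are bounded by detection. *Rpl36* (−6.62), *Rps13* (−6.52), *Rps19* (−6.10), *Rps7* (−6.00), *Rpl9* (−5.97) and *Rpl3* (−5.90) were also depleted. For *Rpl9* the levels were −0.74, −0.57 and 0.74 in T0 and −6.71, −5.31 and −6.45 in spleen, and 12 of its 15 spleen values were undetected. The gene not called was *Rps3a3* (−0.77), whose symbol names a copy of another ribosomal protein gene. The median level of the 20 genes was −0.31, 0.03 and 0.93 in T0 replicates 1 to 3, and each of the 20 was highest in T0 replicate 3.

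RNA polymerase subunit genes were depleted in 23 of 26, with a median change of −4.25. *Polr2g* of RNA polymerase II had levels of −0.46, −0.40 and 0.82 in T0 and of −6.45, −6.42 and −6.53 in spleen, a decrease of −6.45 ± 0.42 (SE, n = 3 against 3; limma adjusted p = 0.00014). *Polr1b* (−5.63) of RNA polymerase I, which transcribes ribosomal RNA, and *Polr1d* (−4.62), which it shares with RNA polymerase III, were also depleted. *Polr1d* spread more than *Polr1b*, with −5.19, −5.14 and −3.01 in spleen. The 3 genes not called were *Polr2a* (−0.89), the largest subunit of RNA polymerase II, *Polr3g* (0.15) and *Polr3gl* (0.35). Proteasome genes were depleted in 9 of 10, led by *Psmc4* (−5.51) and *Psmb2* (−5.35). The methionyl-tRNA synthetase genes of the cytosol, *Mars* (−4.97), and of mitochondria, *Mars2* (−5.70), and the mitochondrial glutamyl-tRNA synthetase gene *Ears2* (−4.72) were depleted as well.

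Genes of purine and deoxynucleotide synthesis and of DNA replication were depleted as well. In purine synthesis 11 of 17 genes were depleted, with a median of −3.46. *Paics* had levels of −0.38, −0.08 and 0.85 in T0 and of −6.32, −6.32 and −5.56 in spleen (change −6.20 ± 0.43, SE, n = 3 against 3; limma adjusted p = 0.00014). *Ppat*, the committed step, fell by 5.81. The depleted genes included *Gart*, *Adsl*, *Pfas* and *Atic* of the de novo route, whereas the salvage genes *Hprt* (−0.27), *Aprt* (−1.02) and *Adk* (−0.93) and the phosphorylase gene *Pnp* (0.00) did not pass the test. Of 18 genes of pyrimidine and deoxynucleotide synthesis, 8 were depleted. *Rrm1*, the large subunit of ribonucleotide reductase, had levels of −0.24, −0.10 and 0.92 in T0 and of −6.57, −6.34 and −6.53 in spleen (change −6.67 ± 0.39, SE, n = 3 against 3; limma adjusted p = 0.00014), with 14 of 15 spleen values undetected. *Dut*, which removes dUTP, fell by 5.75. The genes of de novo UMP synthesis had smaller values, −1.59 for *Cad*, −1.70 for *Dhodh* and −1.35 for *Umps*, and did not pass the test. Replicative DNA polymerase genes were depleted in 8 of 12, with *Pold1* at −5.20 and *Pola1* at −5.03. In the one-carbon and methionine cycle 4 of 18 genes were depleted (22.2%, against 14.7% of all genes). The median change of this list was −0.18, near the −0.21 of all genes. Its 4 depleted genes each fell by more than 5 on the log2 scale, among them *Mat2a* (−5.42), *Mthfd1* (−5.40) and *Ahcy* (−5.33). The serine synthesis genes *Phgdh* (−0.28) and *Psph* (−0.92) and the mitochondrial folate genes *Shmt2* (−0.49) and *Mthfd2* (0.59) were not called.

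In mitochondria, complex II was depleted in all 4 genes, complex I in 27 of 36, ATP synthase in 12 of 15 and complexes III and IV with their assembly factors in 15 of 31. *Ndufb11* of complex I had levels of −0.15, −0.09 and 0.78 in T0 and of −3.95, −6.26 and −6.53 in spleen, a decrease of −5.76 ± 0.68 (SE, n = 3 against 3; limma adjusted p = 0.000546). *Sdha*, the flavoprotein of complex II, had levels of 0.06, 0.38 and 0.68 in T0 and of −4.63, −4.04 and −3.71 in spleen (change −4.50 ± 0.37, SE, n = 3 against 3; limma adjusted p = 0.000167). *Uqcrc1* (−4.43) of complex III and *Atp5b* (−5.30), the catalytic β subunit of ATP synthase, were depleted too. Of the 3 genes for the c subunit of ATP synthase, *Atp5g1* was depleted (−1.61, limma adjusted p = 0.0322), whereas *Atp5g2* (0.77) and *Atp5g3* (0.51) were not called. The 13 genes that mitochondrial DNA itself encodes, which nuclear Cas9 does not reach, had a median change of 0.04 and no call. In the TCA cycle and pyruvate entry 9 of 27 genes were depleted, among them the 4 complex II genes, *Ogdh* (−5.11), *Dlst* (−4.43), *Dld* (−4.30) and *Fh1* (−3.68). The pyruvate dehydrogenase genes *Pdha1* (−0.54), *Pdhb* (0.79) and *Dlat* (0.63) and the citrate synthase gene *Cs* (0.79) did not pass the test.

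Glycolysis was depleted in 7 of 23 genes, with a median of −1.12. *Aldoa* had levels of 0.10, 0.33 and 1.78 in T0 and of −3.48, −5.03 and −4.41 in spleen, a decrease of −5.04 ± 0.57 (SE, n = 3 against 3; limma adjusted p = 0.000427). *Pgam1* (−4.63), *Tpi1* (−3.95), *Pkm* (−3.22), *Ldha* (−3.02), *Gpi1* (−2.29) and *Pgk1* (−1.92) were also depleted. The hexokinase genes *Hk1* (−1.31) and *Hk2* (−0.36) and the glucose transporter genes *Slc2a1* (−1.03) and *Slc2a3* (0.72) were not. *Gapdh* had a change of −1.87 (adjusted p = 0.102 by limma), whereas the library entry *Gapdh-ps15*, named after a pseudogene of *Gapdh*, fell by 5.31. Its sgRNAs may cut the parent gene, as with the other pseudogene and predicted entries that were depleted, so that the gene behind these entries is uncertain. The pentose phosphate pathway was depleted in 6 of 10 genes, led by *Rpe* (−4.43) and *Tkt* (−4.16). Of 23 vacuolar proton ATPase genes, which acidify lysosomes and endosomes, 12 were depleted, led by *Atp6v0c* (−5.54) and *Atp6v1g1* (−5.18).

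Among lipid lists the depleted share was 40% for mevalonate and cholesterol and 20% for sphingolipid and for glycerophospholipid synthesis. It was 5.88% for fatty acid synthesis and desaturation and 0% for fatty acid oxidation, against 14.7% of all genes. The mevalonate and cholesterol list was depleted in 10 of 25 genes. *Hmgcs1* had levels of −0.19, 0.03 and 0.65 in T0 and of −5.23, −4.24 and −6.47 in spleen (change −5.47 ± 0.57, SE, n = 3 against 3; limma adjusted p = 0.000297), and *Mvk* fell by 5.01. The prenyl steps *Ggps1* (−4.19) and *Fntb* (−2.70) were depleted, whereas after the squalene epoxide step *Lss* (−0.48), *Cyp51* (0.20) and *Dhcr7* (0.98) did not pass the test. Sphingolipid synthesis was depleted in 4 of 20 genes, namely *Sptlc1* (−4.10) and *Sptlc2* (−3.86), which start the pathway, *Kdsr* (−4.69), the step after them, and *Ugcg* (−3.75), which makes glucosylceramide. In glycerophospholipid synthesis 6 of 30 were depleted, led by *Cdipt* (−4.65), which makes phosphatidylinositol, and *Pisd* (−4.53), which makes phosphatidylethanolamine in mitochondria. The fatty acid synthesis and desaturation list had 1 depleted gene of 17, *Acsl4* (−1.55), and its rate-limiting carboxylase gene *Acaca* had −1.53 without passing the test. Fatty acid oxidation had no call among 19 genes and a median of −0.42, with *Cpt1a* at −0.29 and *Acadm* at −1.13.

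Sialylation and mucin-type O-glycans were depleted in 7 of 43 genes, a share of 16.3% that is close to the 14.7% of all genes. *Gne*, the first step of sialic acid synthesis, had levels of −0.12, −0.41 and 0.62 in T0 and of −5.75, −4.39 and −4.70 in spleen (change −4.98 ± 0.47, SE, n = 3 against 3; limma adjusted p = 0.00019). *Nans* (−4.36) and *Cmas* (−2.96), which follow in the pathway, and the Golgi CMP-sialic acid transporter gene *Slc35a1* (−4.76) fell with it. *C1galt1* (−3.23) and its chaperone *C1galt1c1* (−3.43), which form core 1, and *St3gal1* (−3.16), which sialylates it, were depleted too. *C1galt1*, *St3gal1* and *Cmas* were named after their values were seen. The other sialyltransferase genes gave no call, with *St6gal1* at −0.41, *St3gal4* at 1.21 and *St3gal6* at −0.78. Among 11 genes of fucosylation none was called.

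Heme synthesis was depleted in 7 of 9 genes, led by *Cpox* (−4.88) and *Fech* (−4.53), the enzyme that inserts iron. The erythroid gene *Alas2* (−0.47) and *Uros* (−0.97) were not called, whereas *Alas1*, the isoform of other cells, fell by 3.19. Cofactor synthesis was depleted in 7 of 23 genes, among them *Ppcs* (−4.41) for coenzyme A, *Rfk* (−4.15) for flavins and *Nampt* (−3.69) for NAD. Redox defence was depleted in 5 of 18 genes, with *Txnrd1* (−3.31), cytosolic thioredoxin reductase, and *Sephs2* (−2.75), which supplies selenium for selenoproteins. Among 13 amino acid transporter genes of the plasma membrane 2 were depleted (15.4%, against 14.7% of all genes), namely *Slc3a2* (−2.49 ± 0.61) and *Slc7a5* (−1.42 ± 0.37; SE, n = 3 against 3; limma adjusted p = 0.0241 and 0.0356), the chains of the LAT1 transporter. Of 23 histone lysine methyltransferase genes 3 were depleted, a share of 13.0% that is also near the background, and *Kmt2a* had the largest decrease (−3.23). Polyamine synthesis, phospholipase C and the surface NAD and ATP ectoenzymes had no call in either direction. Of 80 cytochrome P450 genes, most of which are liver enzymes, 1 was depleted, *Cyp2c38* (−2.01), and their median change was −0.15.

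**Figure D4:**
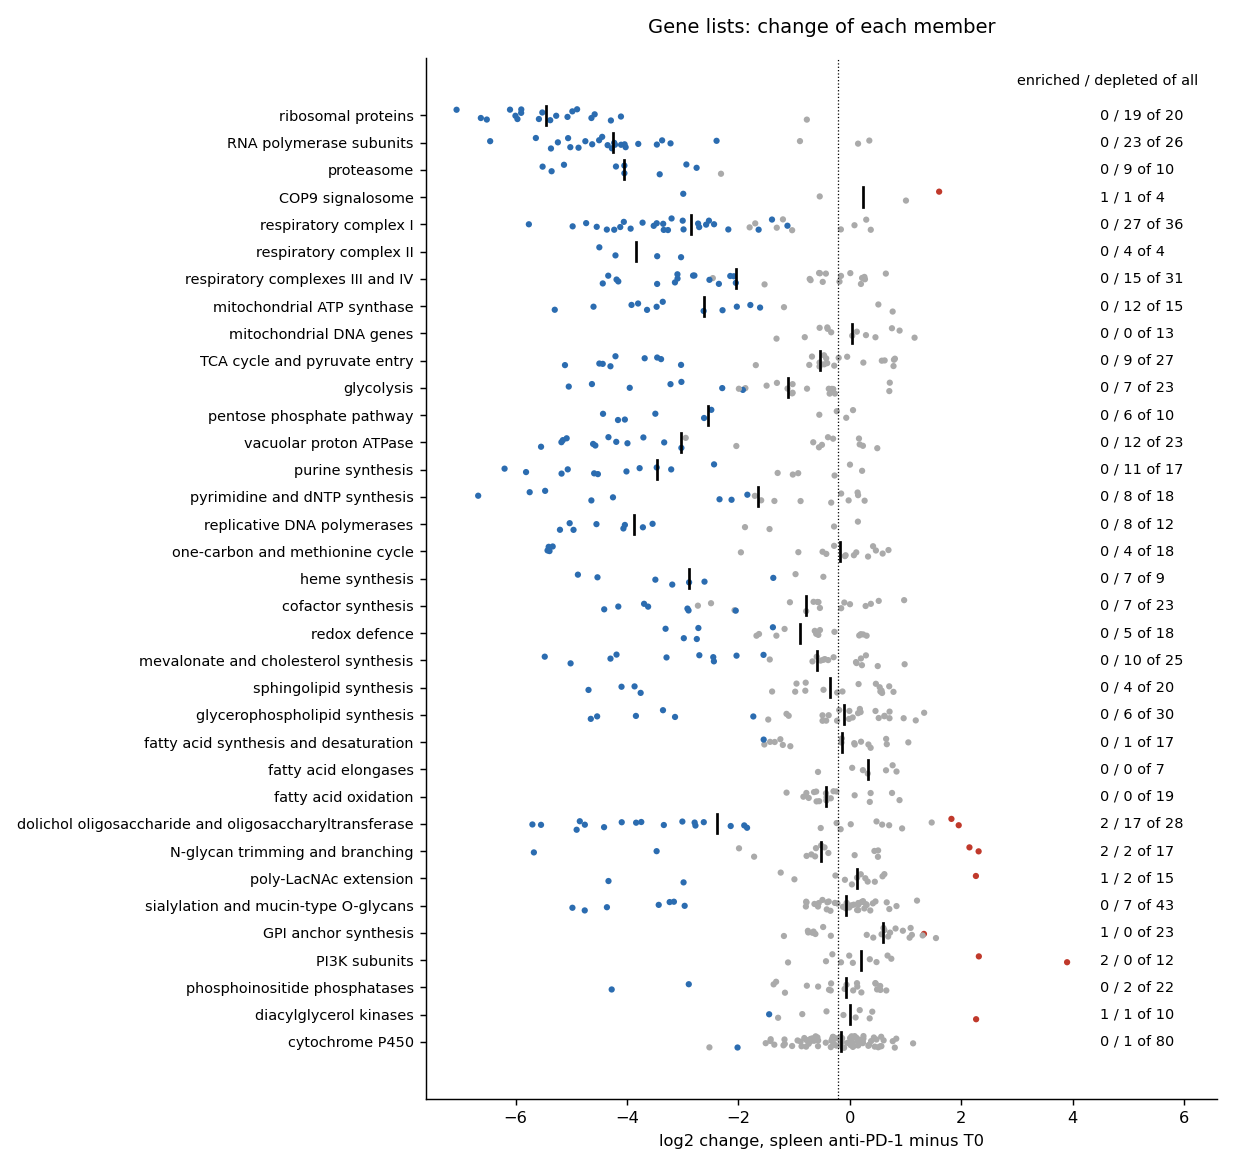
Change of each member (points, log2, spleen anti-PD-1 minus T0) of 35 gene lists, with the list median as a bar, the median of all genes dotted (−0.21) and the counts of enriched and depleted members at the right. Depleted genes are blue, enriched genes red and genes not called grey.

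Whether anti-PD-1 changed the representation within the spleen was asked by comparing spleen anti-PD-1 with spleen IgG directly. No gene was higher and none lower by limma at an adjusted p of 0.05 (0% and 0% of 2078 genes), 51 were higher and 73 lower at an unadjusted p under 0.05, and the smallest adjusted p was 0.369. *Pik3cd* differed by 0.69 ± 0.63 (SE, n = 3 against 3; limma adjusted p = 0.908), and the IgG libraries had levels of 2.91, 3.73 and 3.33. The gene with the smallest p was *Mvd*, which makes isopentenyl diphosphate at the end of the mevalonate pathway. It was named after its values were seen. *Mvd* had levels of −2.41, −2.21 and −2.23 under anti-PD-1 and of −5.67, −4.61 and −4.87 under IgG, a difference of 2.77 (limma adjusted p = 0.369). The groups did not overlap for *Mvd*, and over all genes anti-PD-1 libraries lay above all IgG libraries for 4.67% and below them for 6.16%. Against the same T0 libraries, spleen IgG gave 12 enriched (0.577%) and 303 depleted genes (14.6%), and primary tumour anti-PD-1 gave 18 (0.866%) and 412 (19.8%). The median standard error of a gene against T0 was 0.42 in spleen anti-PD-1 and 0.26 in tumour, so that counts of calls differ in precision. The median standard error of a gene in the direct comparison was 0.65 with 3 libraries each, and as the values of *Mvd* show, differences several times larger did not pass the test.

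Whether the spleen differed from the tumour under the same treatment was tested in the same way. No gene was higher or lower in spleen than in primary tumour by limma without a block (0% and 0%), with 59 higher and 42 lower at an unadjusted p under 0.05 and a smallest adjusted p of 0.134. Libraries of the same number deviated together in these groups, and with the replicate number as a block 4 genes were higher in spleen (0.192%) and none lower, with 84 and 78 at an unadjusted p under 0.05. These 4 were named after their values were seen. *Pgk1*, phosphoglycerate kinase, had levels of −2.56, −2.41 and −0.93 in spleen and of −5.46, −4.55 and −4.15 in tumour, a difference of 2.75 ± 0.50 (SE with the block, n = 3 against 3; limma adjusted p = 0.0215). *Eno1*, the enolase that follows it by 2 steps in glycolysis, had levels of −1.25, −1.02 and −0.32 in spleen and of −2.92, −3.70 and −3.79 in tumour, a difference of 2.61 ± 0.51 (SE with the block, n = 3 against 3; limma adjusted p = 0.0353). In both genes every spleen library lay above every tumour library, which held for 5.82% of all genes.

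Of the 23 glycolysis genes, 15 had a higher mean in spleen than in tumour, against 1070 of all 2078 genes, and the median difference was 0.46 against 0.02 for all genes. Centred on the nontargeting median, the median difference of all genes moved to −0.35. The fit without the block made no call there, as with the main centring. The blocked fit was not rerun with that centring, so the blocked calls were not checked under it. The differences of *Gapdh* (2.12) and *Aldoa* (1.82) had adjusted p of 0.142 and 0.209 by limma with the block. Against the shared T0 libraries, 13 of 23 glycolysis genes were depleted in tumour, where 19.8% of all genes were, and 7 of 23 in spleen, where 14.7% were. These counts differ in precision, since the median standard error of a gene against T0 was 0.26 in tumour and 0.42 in spleen. The median change of the 23 genes from T0 was −1.37 in tumour, −1.12 in spleen anti-PD-1 and −1.22 in spleen IgG. *Cops4* of the COP9 signalosome had levels of −0.10, 1.33 and 2.22 in spleen and of −1.65, −1.72 and −2.21 in tumour, a difference of 3.01 ± 0.55 (SE with the block, n = 3 against 3; limma adjusted p = 0.0215). *Cops8* differed by 2.19 with an adjusted p of 0.115 by limma with the block. Its tumour levels were −0.18, −0.15 and −0.54, whereas all spleen anti-PD-1 and spleen IgG levels were above 1. *Mvd* differed by 2.48 ± 0.51 (SE with the block, n = 3 against 3; limma adjusted p = 0.0395). *Stt3a* had a change from T0 of −0.20 in tumour and *Pik3cd* one of 2.86, and their differences between the organs did not pass the test.

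**Figure D5:**
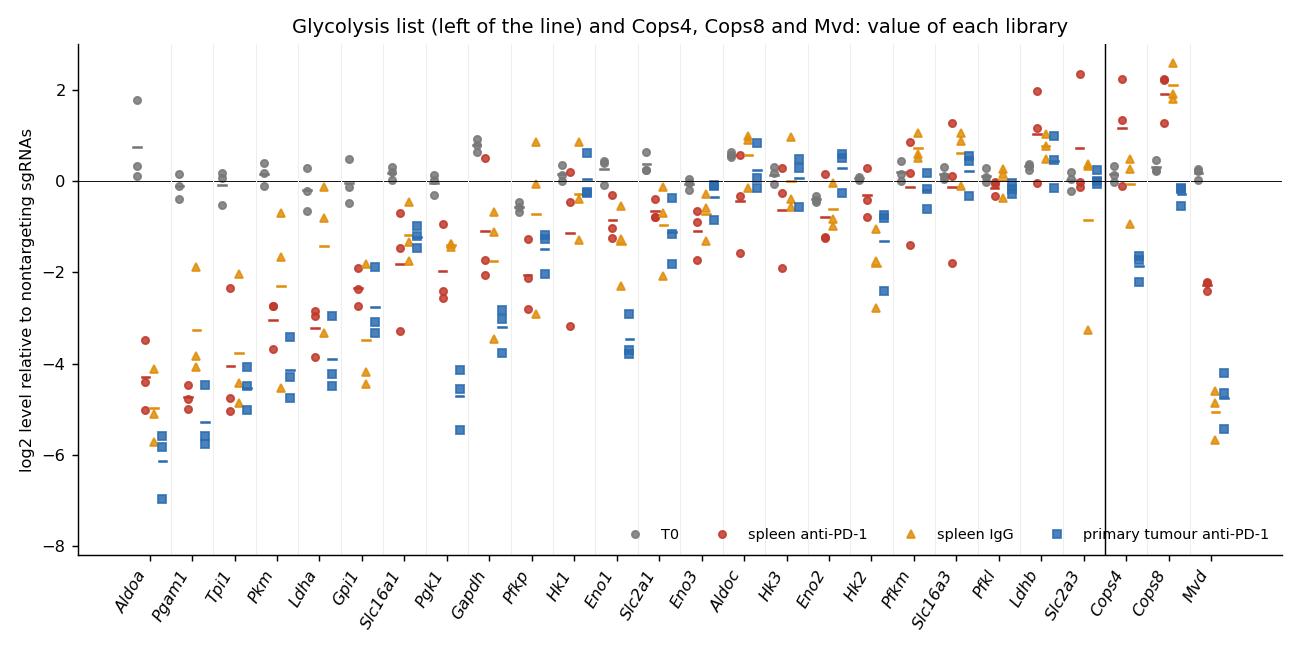
Level relative to the nontargeting sgRNAs (y axis, log2) of the 23 glycolysis genes and, right of the line, of *Cops4*, *Cops8* and *Mvd* in each library of T0, spleen anti-PD-1, spleen IgG and primary tumour anti-PD-1, with bars for group means. For *Pgk1*, *Eno1*, *Cops4* and *Mvd* the 3 tumour libraries lie below the 3 spleen anti-PD-1 libraries.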

How the data were processed

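The multi-organ CRISPR screen was sequenced at the sgRNA insert in genomic DNA. The deposited values are a signal per sgRNA and library: per the methods, the authors took sgRNA counts from MAGeCK, scaled them by the 250 nontargeting sgRNAs and then applied ComBat across organs, with settings and handling of T0 that are not given in the sources used here. How far this correction moved the T0 contrast was not tested. Because most values hold fractions of a read, count models were not used, the depth is unknown and counting intervals are not given. Libraries were grouped by their labels. A value at the lowest that an sgRNA shares between libraries of 1 replicate number (relative tolerance 1e-09) was read as undetected.

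log2(signal + 1) was averaged over 5 sgRNAs per gene and centred on the nontargeting mean of each library. The groups compared were fitted with limma 3.58.1 (lmFit, eBayes) in R 4.3.3, two-sided, with Benjamini-Hochberg adjustment over 2078 genes (10390 for sgRNAs) and a threshold of 0.05. The fit was also run on data simulated from the nontargeting sgRNAs. These do not carry the difference of the depleted genes between T0 libraries, so that no support is drawn from that run. A fold change on this scale understates the change of sgRNAs with low signal. With 3 libraries against 3, the smallest exact permutation p is 0.1, so single genes were tested by limma only. Same-numbered libraries of spleen and primary tumour anti-PD-1 deviated together (r = 0.199, 0.195 and 0.168 over genes for replicates 1 to 3, all above 0.1), which pairs them by the data, and the blocked result is given beside the unblocked one. Spleen and T0, or spleen anti-PD-1 and IgG, were not paired.

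Genes named were those the study names for this screen, the 12 largest changes per direction with at least 4 sgRNAs and no overlap of the libraries, up to 4 called members per direction of each of 43 gene lists, and genes called in the other comparisons. Members that were not called, genes said to be so, and *Atic*, *Atp5g1*, *Fh1*, *Fntb*, *Gpi1*, *Ldha*, *Pfas* and *Gapdh-ps15* were named after their values were seen. Not all of the 134 genes selected are described, and some are not reported here. The libraries, lists and genes were chosen with earlier results of these data known. Alternatives were another pseudocount (10), other centring, the median of the sgRNAs, leaving out the lowest 10% of sgRNAs, all libraries in 1 fit, the block, library weights, a trended robust prior, undetected values set to 0, and leaving out each library. Figures were drawn with matplotlib 3.10.9. The deposited table names sgRNAs by number only, so no sgRNA sequence is printed, and no coordinates are given because the genome build is not given in the sources used here.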

Additional observations from a re-analysis of the deposited data

Results flagged for a closer look

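With the replicate number as a block, the difference between spleen and primary tumour under anti-PD-1 passed the test (limma, 3 libraries against 3) for 4 genes. *Cops4* was higher in spleen by 3.01 on the log2 scale (adjusted p = 0.0215). All 5 of its sgRNAs were higher in spleen than in T0, but its change of 1.01 from T0 did not pass the test (limma adjusted p = 0.349). *Pgk1* was higher in spleen by 2.75 (adjusted p = 0.0215) and was depleted against T0 in both organs. *Eno1* was higher in spleen by 2.61 (adjusted p = 0.0353) and was called depleted against T0 in tumour, while in spleen its change of −1.12 did not pass the test. *Mvd* was higher in spleen by 2.48 (adjusted p = 0.0395) and was depleted against T0 in both organs. Without the block the smallest limma adjusted p of this comparison was 0.134, so that these 4 calls rest on the pairing. The main fit had no block, and the pairing was read from the same libraries that were tested.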

How the results depend on the processing

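Against T0, 15 genes were enriched and 305 depleted. Centring on the nontargeting median gave 9 enriched genes, all libraries in 1 fit 3, and values as deposited 1 enriched and 569 depleted. The median of the 5 sgRNAs gave 10 enriched and 135 depleted. Under the other settings that kept all libraries the counts were 12 to 18 and 279 to 354. Leaving out 1 library gave 5 (without T0 replicate 3) to 46 enriched genes (without spleen replicate 1) and 237 to 370 depleted. Of single sgRNAs, 16 were enriched and 499 depleted, with 30 enriched at a pseudocount of 10, 8 with the nontargeting median, and, without 1 library, 0 to 98 enriched and 297 to 724 depleted. The replicate numbers did not pair spleen with T0 (r = −0.0375, −0.234 and −0.00891), and no library correlated best with its own number. The replicate block gave 13 enriched genes, of which 10 were among the 15, and 340 depleted, and for sgRNAs 0 enriched by limma (125 at an unadjusted p under 0.05) and 372 depleted. Between spleen anti-PD-1 and IgG no alternative made a call in limma. Without spleen anti-PD-1 replicate 1 the smallest adjusted p was 0.0613. Against the tumour the block gave 4 higher genes and a pseudocount of 10 gave 1, and the other alternatives 0. The value of *Elovl1* changed sign as deposited (−0.24). Over the genes followed, 1440 values kept their direction and side of the threshold, 156 no longer passed it and 1 newly passed. The cause of these changes was not tested, beyond the shift of all genes by the centring. The depth is unknown, and undetected sgRNAs, up to 24.1% of a library, bound how far a gene can fall.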

Other observations

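Of the called genes, 54 depleted and 5 enriched ones were in none of the gene lists, and those named here were chosen after their values were seen. They were picked among called genes, so that nothing follows for the pathways they belong to. *Gfpt1*, *Gnpnat1*, *Pgm3* and *Uap1*, which encode enzymes of UDP-GlcNAc synthesis, were each depleted in spleen under anti-PD-1, with *Gfpt1* at −4.78, *Gnpnat1* at −2.89, *Pgm3* at −3.26 and *Uap1* at −2.59 (SE 0.36 to 0.85, n = 3 against 3, limma adjusted p at most 0.0118). The paralogues *Gfpt2* (0.42) and *Uap1l1* (−0.18) and the salvage kinase gene *Nagk* (−0.41) were not called. *Ogt*, which attaches single GlcNAc residues to nuclear and cytosolic proteins, fell by 4.69. Of the Golgi transporter genes, *Slc35a2* (−4.22) for UDP-galactose was depleted, whereas *Slc35a3* rose by 2.15.

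The sugar nucleotide genes *Ugp2* (−3.05) and *Gmppb* (−4.62) were depleted with all 5 sgRNAs lower. Outside sugar metabolism the DNA methyltransferase gene *Dnmt1* (−5.43), the farnesyltransferase gene *Fnta* (−5.07), the phosphatidylinositol 4-kinase gene *Pi4kb* (−4.74) and the nuclear pore gene *Nup205* (−4.44) were depleted. *Itpkb*, an inositol trisphosphate 3-kinase gene with a known role in T cells, fell by 2.55 (levels −0.02, 0.11 and 0.87 in T0 and −2.83, −1.77 and −2.11 in spleen), while its paralogues *Itpka* (−0.65) and *Itpkc* (−1.44) did not pass the test.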
